A study of Mus musculus with 2 samples.

Results

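Cluster 9 is 1 of the 12 fine clusters in the authors' deposited annotation of colon CD8 T cells, and it held 119 of 8562 cells. Its members were taken by that cluster number alone. They had few UMIs (unique molecular identifiers, each counting 1 captured RNA molecule) and a low share of UMIs from ribosomal protein genes. They also had a high mitochondrial share, high levels of nuclear RNAs and of genes with a long genomic span, and lower detection of the Cd3 chains, of Cd8b1 and of effector genes such as Nkg7. Other genes of the CD8 and cytotoxic lists did not follow. Cd8a, Trbc2 and Gzmb showed no detectable difference in detection from the other cells at like depth, and Zeb2, Klrk1 and Tbx21 had higher levels. The median gene of short span was lower too, so the lower levels were not particular to T cell genes. The cluster was made from these same genes, so its values against the other 8443 cells are a description with no test.

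The cells were taken from colon lamina propria. The hosts were Rag1 KO mice, which make no mature B or T cells of their own. They had been given 100000 splenic naive CD4 T cells of wildtype mice and 500000 splenic CD8 T cells 6 to 10 weeks before, at an age of 8 to 12 weeks. The donors of the CD8 T cells were either Bcl6fl/fl Cd8aCre mice, in which Cre driven by Cd8a sequences cuts a floxed Bcl6 gene, or Bcl6fl/fl mice without Cre. The annotation calls the groups Crep and Cren, read here as Cre-positive and Cre-negative, a reading that no source spells out. Bcl6 itself did not check it: in the cells outside cluster 9 its level was higher in Crep than in Cren, as given with the group comparison. The groups are therefore called by their annotated names. Each group had 4 hashtags (antibody-borne barcodes that mark the sample of origin), and all 8 were sequenced in 1 pooled 10x Genomics 5′ v2 library. Whether a hashtag stands for 1 mouse is not stated, so p-values measure the spread between hashtags.

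In a droplet library each cell's count is a sample of the RNA that was inside the cell when it was lysed. Mature messages of ribosomal, metabolic and cytoskeletal genes lie in the cytoplasm, messages of the mitochondrial genome stay inside the mitochondria, and Malat1, Neat1 and unspliced transcripts are held in the nucleus. Most of the length of a gene with a large span is intron. Intron is present in nuclear precursor RNA and absent from the mature message. The counts used here are per gene, without a split of intron and exon reads, so precursor RNA was not measured. CD8 T cells are defined by the CD3 chains, the T cell receptor and the coreceptor made of Cd8a and Cd8b1. In the inflamed colon they make granzymes, perforin and the chemokine Ccl5.

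A cell of cluster 9 had a median of 1007 UMIs (range 689 to 8415) and 658 detected genes, and the other cells had medians of 2781 UMIs and 1266 genes. The Crep hashtags had cluster 9 medians of 997, 792, 1029.5 and 862.5 UMIs, and the Cren hashtags 811, 1048, 1201 and 1344. The other cells had medians from 2346 to 3012.5 UMIs over the 8 hashtags, so the cluster was the shallower set in each. Ribosomal protein genes made up a median of 5.58% of a cluster 9 cell's UMIs, against 20.9% in the other cells. Mitochondrial genes made up 2.04%, against 0.684%. The deposit holds no cell under 500 genes and none over 3% mitochondrial UMIs, and cluster 9 lay close to both limits. In the cluster, 37 of 119 cells had fewer than 600 genes and 37 had more than 2.5% mitochondrial UMIs, against 126 and 49 of the 8443 other cells. Of the 12 fine clusters, cluster 9 had the lowest median UMI count, the lowest ribosomal share and the highest mitochondrial share. The other 11 ranged from 2367 to 4081 UMIs, from 17.2% to 24.8% ribosomal and from 0.599% to 0.777% mitochondrial.

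Genes that span at least 100 kb, 1505 genes in all, made up a median of 21.5% of the UMIs of a cluster 9 cell and 6.69% in the other cells. Malat1 alone, a long noncoding RNA of nuclear speckles, made up 1.13% and 0.414%. The long-gene share was 21.5%, 21.3%, 21.4% and 20.2% in cluster 9 of the Crep hashtags and 22.5%, 23.4%, 22.9% and 18.5% in the Cren hashtags. In the other cells it lay between 6.48% and 7.14%. No hashtag of the cluster came near the range of the other cells. Cmss1, the most abundant of these genes, had 30935 CPM (UMIs per 1000000 UMIs) in cluster 9 and 14677 CPM in the other cells, and gave 5370 of the 30894 long-gene UMIs of the cluster. Without it the median was 17.4%, against 5.38% in the other cells.

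**Figure D1:**
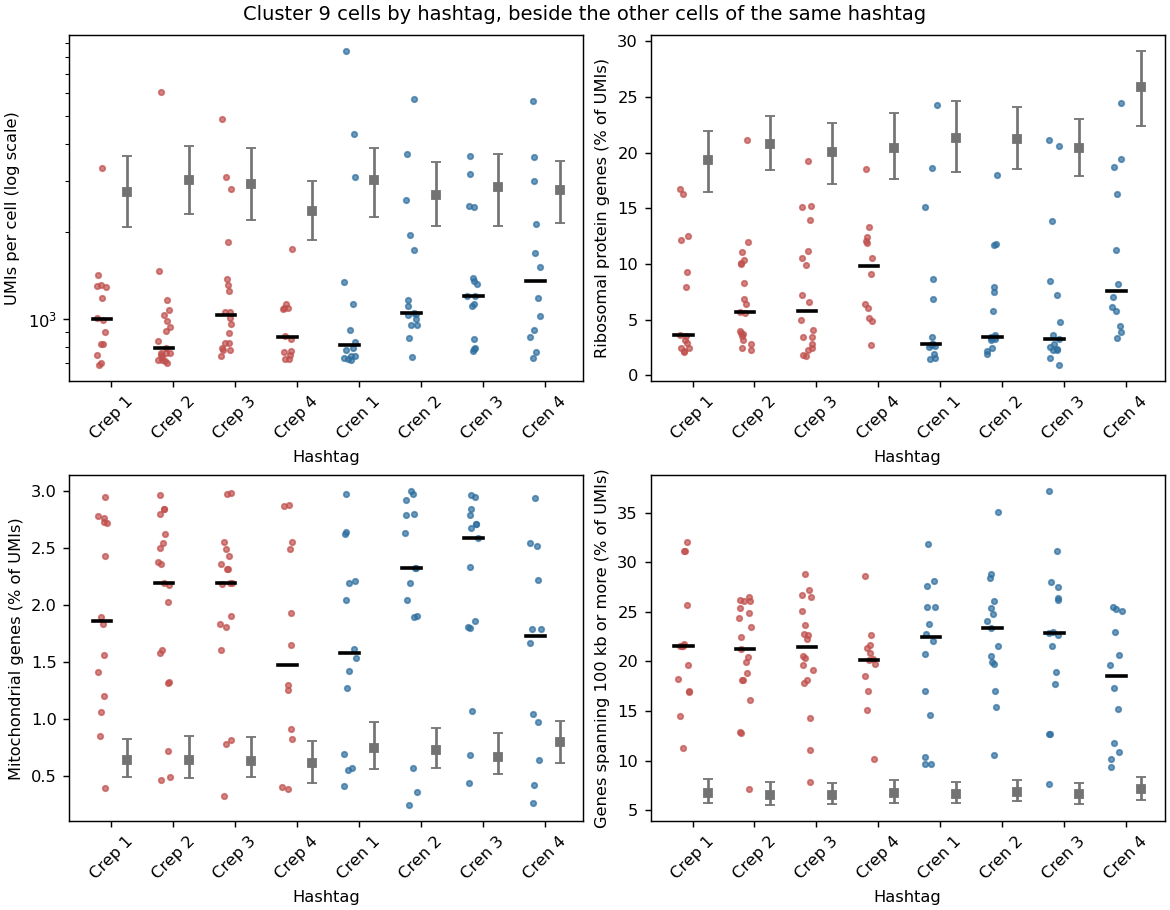
Each point is 1 cluster 9 cell, placed by hashtag (x axis; Crep left, Cren right), and black bars are medians. Grey squares with bars are the median and interquartile range of the other cells of that hashtag. The panels give UMIs per cell on a log axis and the shares of UMIs, in percent, from ribosomal protein genes, mitochondrial genes and genes spanning 100 kb or more. Cluster 9 medians are below the other cells for UMIs and ribosomal share and above them for mitochondrial and long-gene share in all 8 hashtags.

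The members were of more than 1 kind. Of the 119 cells, 94 had at most 1500 UMIs, a limit set after the values were seen. These had medians of 894.5 UMIs, 3.85% ribosomal, 2.26% mitochondrial and 22.6% long-gene UMIs. The other 25 had medians of 3087 UMIs, 15.2% ribosomal, 0.639% mitochondrial and 11.3% long-gene UMIs, and they held 48.7% of all the UMIs of the cluster. Their long-gene share lay above the 6.69% median of the other cells, and their mitochondrial share did not. Summed levels of the cluster therefore mix both kinds, and list medians for the 94 shallow cells are given beside those of all members for most lists. Of the 119, 100 cells were all of coarse cluster 7, and the remaining 19 fell in coarse clusters 4 (8 cells), 0 (5 cells), 3 (4 cells), 5 (1 cell) and 1 (1 cell). Those 19 cells had a median ribosomal share of 11.9%, against 3.93% in the 100.

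Within cluster 9, cells with a lower ribosomal share had a higher long-gene share (Spearman rho −0.79 over 119 cells). Across the other 8443 cells rho was −0.27. Both shares have the same UMI total as denominator, and the cells share 1 library, so these are descriptions. The mitochondrial and long-gene shares had rho 0.60 in the cluster and 0.13 in the other cells.

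**Figure D2:**
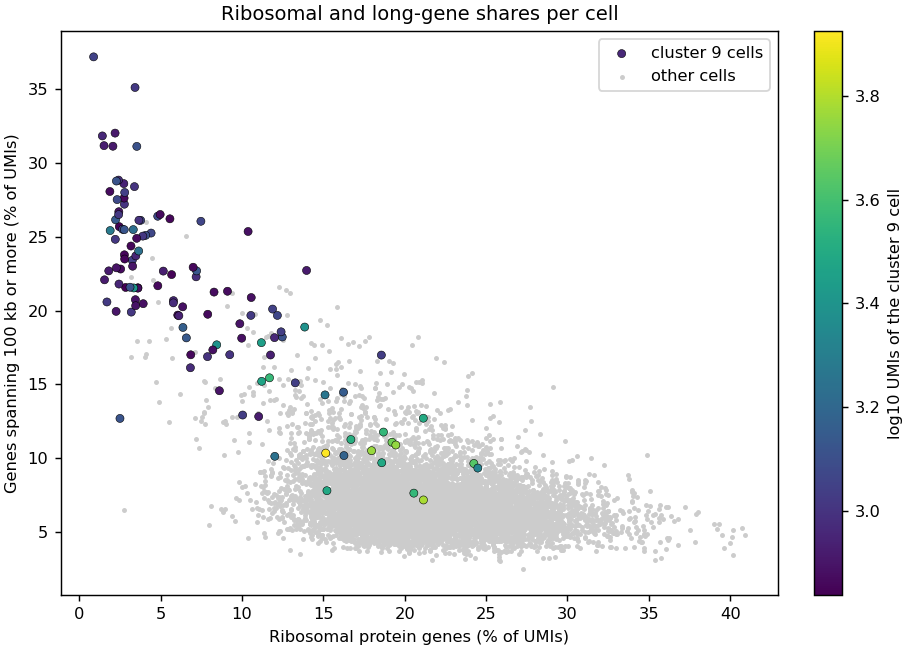
Share of UMIs from ribosomal protein genes (x axis, %) against the share from genes spanning 100 kb or more (y axis, %), 1 point per cell. Cluster 9 cells are coloured by log10 UMIs and the other cells are grey. Most of the 119 cells lie at the upper left, and the deeper ones reach into the grey cloud.

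Cells with some of these features also lay outside the cluster. Among the other cells, 85 had a ribosomal share at or below 11.1%, the upper quartile of cluster 9. They had medians of 1300 UMIs, 1.16% mitochondrial and 13.1% long-gene UMIs, and 29 of them were in fine cluster 4 and 19 in fine cluster 3. Another set, of 98 cells above the cluster 9 median for mitochondrial share, had 15.1% ribosomal and 13.1% long-gene UMIs. Among the other cells no deeper than the upper quartile of cluster 9 (at most 1339 UMIs, 480 cells), the medians were 18.7% ribosomal, 0.941% mitochondrial and 8.74% long-gene UMIs.

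The hashtag calls gave a readout that the gene clusters did not use. These 15-base barcodes, read from the antibody library, are shown because they define the 8 replicates.
Crep 1: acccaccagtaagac
Crep 2: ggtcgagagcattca
Crep 3: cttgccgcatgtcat
Crep 4: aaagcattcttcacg
Cren 1: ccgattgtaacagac
Cren 2: gcttaccgaattaac
Cren 3: ctgcaaatataacgg
Cren 4: ctacattgcgatttg
In cluster 9, 118 of 119 cells (99.2%, 95% Wilson interval 95.4% to 99.9%) were given their annotated hashtag by both of the authors' classifiers, against 8329 of 8443 other cells (98.6%, 98.4% to 98.9%). The 1 exception was called as carrying more than 1 hashtag. Among the other cells, 31 were called so and 81 were called as carrying none. The difference, cluster 9 minus other cells, averaged 0.690 percentage points ± 1.31 (SD over 8 hashtags), and the cluster was higher in 6 of 8 (exact two-sided sign-flip test, p = 0.25). The smallest p that 8 differences allow in this test is 0.0078, but Cren 4 had 100% in both sets, so here the limit is higher. With 12 to 19 cluster 9 cells per hashtag and agreement near 100% in both sets, the test could hardly tell the cluster from the other cells.

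Gene levels were compared as CPM, the UMIs of a gene per 1000000 UMIs summed over cells. The 2482 genes compared had at least 10 UMIs expected in cluster 9 from their level over all cells. Of these, 1060 (42.7%) were higher in cluster 9 and 1422 (57.3%) lower, and each count of genes in a list is to be read beside these shares. At least 2-fold, 409 (16.5%) were higher and 474 (19.1%) lower. Those higher in 8 of 8 hashtags numbered 270 (10.9%), and those lower in 8 of 8 numbered 429 (17.3%). The median ratio of cluster 9 over the other cells was 0.867, or 0.822 for the 94 shallow cells. It was 0.769 when ribosomal and mitochondrial genes were left out of the totals, a shift of all genes alike, so each group is given beside this median.

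Ribosomal protein genes were lower almost throughout. Of 83, 81 were compared, 79 were lower and 37 were at least 2-fold lower, with a median ratio of 0.505, and 70 were lower in 8 of 8 hashtags. In the 94 shallow cells the median was 0.282. Rplp0, a protein of the ribosomal stalk, had 1579, 2653, 2516 and 1382 CPM in cluster 9 of the Crep hashtags and 5336, 2741, 2546 and 3647 CPM in the Cren hashtags. The other cells had 6162 to 6907 CPM in Crep and 6945 to 8860 CPM in Cren. Every hashtag was lower in the cluster than in the other cells. The 2 genes of the list that were not lower were Rps27rt and Rps15, with ratios of 1.00 and 1.13.

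Nuclear genes of the respiratory chain, which build oxidative phosphorylation together with the mitochondrial genome, were lower in 14 of 14. Of them 9 were at least 2-fold lower, and the median ratio was 0.440. Cox8a, a subunit of cytochrome c oxidase, had 565 CPM in cluster 9 and 1377 CPM in the other cells. The genes of the same chain encoded in the mitochondria ran the other way: 11 of 13 were compared, 11 were higher, 6 at least 2-fold, with a median ratio of 2.00. mt-Co1, another subunit of that oxidase, had 6436, 5855, 6366 and 5181 CPM in cluster 9 of the Crep hashtags and 3320, 5364, 7851 and 3994 CPM in the Cren hashtags. It had 2252 to 2415 CPM in the other Crep cells and 2522 to 2794 CPM in the other Cren cells. The cluster was above the other cells of the same hashtag in 8 of 8. In the 94 shallow cells the medians were 0.236 for the nuclear genes and 2.91 for the mitochondrial ones.

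Abundant cytoplasmic messages were lower too, 14 of 15 with a median ratio of 0.532 (0.370 in the 94 shallow cells). Tmsb4x, which binds free actin, had a ratio of 0.354, the glycolytic enzyme Gapdh 0.377, Actb 0.477, the translation factor Eef1a1 0.504 and B2m, the light chain of MHC class I, 0.547. Ftl1, a ferritin chain, was the exception at 1.21. It also kept a ratio above 1 (1.07) with ribosomal and mitochondrial genes left out of the totals.

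By the same measure, the 15 lowest genes were taken among those with at least 30 UMIs expected from the level in the other cells. They included Ifitm1, an interferon-induced membrane protein, with 51.8 CPM in cluster 9 and 295 CPM in the other cells (ratio 0.176). After it came Erh (0.215), the G protein subunit Gng10 (0.266), Mrps24 of the mitochondrial ribosome (0.269) and the glycolytic enzyme Gpi1 (0.287). Next were Atp6v1g1 of the vacuolar proton pump (0.292), Tomm7 of the mitochondrial import pore (0.295), Bloc1s1 (0.296), Cuta (0.298) and Gpx4 (0.298), which reduces lipid peroxides. Ech1 (0.304), the cystatin Cst7 (0.311), Sec61b of the endoplasmic reticulum channel (0.314), Npc2 (0.315) and the tubulin Tuba1b (0.321) completed them. Of the 15, 13 were lower in 8 of 8 hashtags and Mrps24 and Tuba1b in 7 of 8. All 15 span less than 30 kb, which is no support for a pattern, since the rule takes genes through their level in the other cells.

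Nuclear RNAs were higher. Of 16 listed, 11 were in the table and 5 were compared, and 5 were at least 2-fold higher, with a median ratio of 2.73 (3.34 in the 94 shallow cells). Malat1 had 11596, 12625, 9911 and 13558 CPM in cluster 9 of the Crep hashtags and 6758, 7870, 10991 and 10376 CPM in the Cren hashtags. The other cells had 3877 to 5129 CPM in Crep and 3970 to 4926 CPM in Cren, and the lowest hashtag of the cluster was above the highest of the other cells. Neat1, the scaffold of paraspeckles, had 225 CPM in cluster 9 and 61.1 CPM in the other cells (ratio 3.68, higher in 7 of 8 hashtags). Mir142hg, the host of a blood-cell microRNA, had a ratio of 2.32. Gm42418 (ENSMUSG00000098178.1, plus strand, 1831 bases at chr17:39846958-39848788 of GRCm38) had 69071 CPM in the cluster and 25267 CPM in the other cells. Gm26917 (ENSMUSG00000097971.3, at chr17:39843013-39846341, same strand) had 1855 and 163 CPM, a ratio of 11.4, the largest of the 15 highest genes. It reached 4189 and 3522 CPM in Cren 2 and Cren 3 and 668 to 1727 CPM in the other 6 hashtags, all above the 224 CPM that was the highest value in the other cells. AY036118, which lies within Gm42418 on the opposite strand, had a ratio of 1.21 and was higher in 4 of 8 hashtags. Whether the counting used strand is not given in the sources used here, so reads of these last genes may not be separable. Gm42418 and Gm26917 were set apart here as a ribosomal RNA locus, and whether their reads are nuclear RNA was not tested. They gave most of the UMIs of the list. Its median share of a cell's UMIs was 6.09% in cluster 9 and 2.39% in the other cells. Without the 2 genes it was 1.31% and 0.445%.

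Genes of a list made mostly of splicing factors and nuclear proteins were higher in 11 of 12, with a median ratio of 1.75 (2.2 in the 94 shallow cells). Of them, 8 were higher in 8 of 8 hashtags. Macf1, a cytoskeletal linker, had a ratio of 3.29, the chromatin regulator Ankrd11 2.99, Srrm2 of the spliceosome 2.00, Son of nuclear speckles 1.86 and the splicing regulator Rbm39 1.61. Ddx5, an RNA helicase, was at 0.99.

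The ratio was larger for genes of longer span over 2372 genes that were neither ribosomal nor mitochondrial. Genes spanning under 5 kb had a median ratio of 0.589, those of 5 to 10 kb 0.613 and those of 10 to 20 kb 0.729. From 20 to 50 kb it was 1.05, from 50 to 100 kb 1.73, from 100 to 200 kb 2.64, and from 200 kb up 3.35. At least 2-fold higher were 1.35% of 371 genes under 5 kb and 80.2% of 86 genes from 200 kb up. Of the 263 genes compared that span at least 100 kb, 246 were higher, 183 at least 2-fold and 134 in 8 of 8 hashtags, with a median of 2.86. Spearman rho across these 2372 genes was 0.62 with the span and 0.61 with the summed exon length, so the 2 lengths cannot be told apart here, and genes are not independent replicates. With both sets held at low depth, 94 cluster 9 cells and 480 other cells, the medians were 0.485 under 5 kb and 3.08 from 200 kb up.

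**Figure D3:**
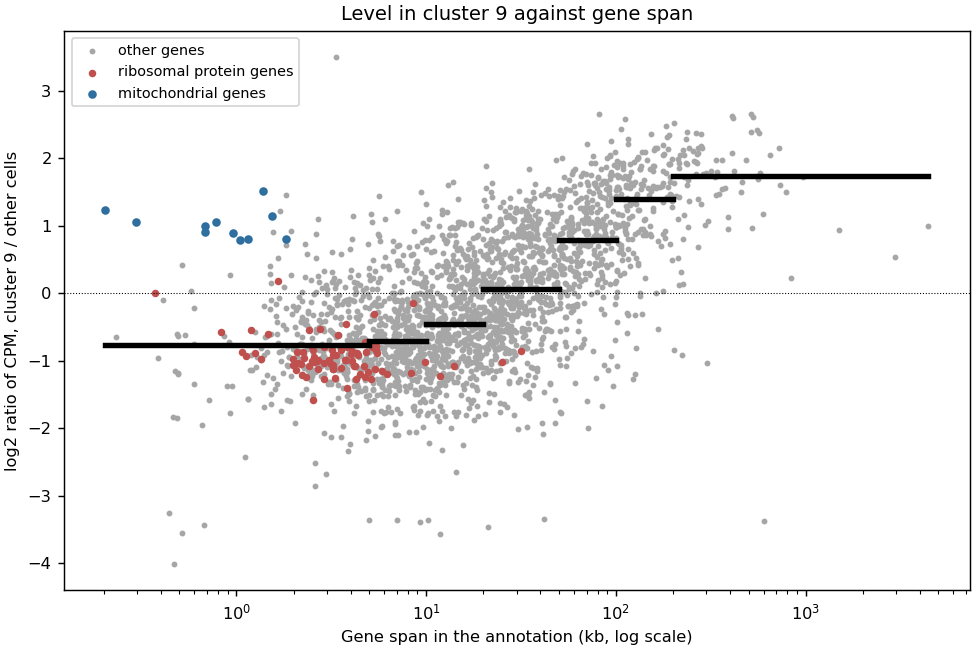
Each point is a gene: its span in the annotation (x axis, kb, log scale) against the log2 ratio of CPM, cluster 9 over other cells (y axis). Red points are ribosomal protein genes, blue points mitochondrial genes, and black bars the medians of the grey points in 7 span classes, from 0.589 to 3.35 on the linear scale.

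The 15 highest genes after this rule were Gm26917, Rfx3, Smad3, Fbxw7, Fbxw11, Ano6, Pik3c2a, Ksr1, Atp10a, Kmt2d, Exoc6b, Abtb2, Zbtb20, Bcas3 and Vps54. Rfx3, a transcription factor, had 127 CPM in cluster 9 and 13.1 CPM in the other cells (ratio 9.65, from 22 UMIs). Smad3, which carries the TGF-beta signal to the nucleus, had 213 and 25.5 CPM (ratio 8.36, 37 UMIs, higher in 8 of 8 hashtags). Fbxw7, a ubiquitin ligase subunit that marks cyclin E and Myc for breakdown, had 127 and 15.3 CPM (ratio 8.31). Kmt2d, a histone H3 methyltransferase, had 115 and 17.1 CPM (ratio 6.74). Of the 15, 12 span more than 100 kb, and Vps54, Kmt2d and Gm26917 span less. The rule asks for a UMI in at least 10% of cluster 9 cells, so genes scarce elsewhere entered through their level in the cluster. Their ratios and spans are therefore no support for the pattern. Of the 2482 genes compared, chosen by their level over all cells, 263 span at least 100 kb. The largest ratio among those 263 was 6.28, so Rfx3, Smad3 and Fbxw7 were not among them. When both sets were held at low depth, the ratios were 6.26 for Rfx3 and 7.54 for Smad3. Of abundant long genes, picked for their values and so no support for the pattern, Mbnl1, a splicing regulator, had 2425 and 688 CPM. Maml2, a Notch coactivator, had 634 and 102 CPM, and Atxn1 847 and 140 CPM.

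The T cell identity of cluster 9 was checked on its defining genes. Of 12 CD8 T cell genes, 10 were lower and 4 at least 2-fold lower, with a median ratio of 0.756 (0.551 in the 94 shallow cells). Cd8b1 had 546, 595, 229 and 432 CPM in cluster 9 of the Crep hashtags and 395, 235, 382 and 608 CPM in the Cren hashtags. The other cells had 1049 to 1223 CPM in Crep and 683 to 1106 CPM in Cren, above the cluster in every hashtag. Cd3e had 772 CPM in cluster 9 and 1446 CPM in the other cells, Cd3g 697 and 1528 CPM, and Cd3d 547 and 1125 CPM. Thy1, a surface glycoprotein of T cells, had 628 and 1307 CPM. Cd8a was closer at 651 and 884 CPM, and Trac, the constant part of the receptor alpha chain, was at 138 and 150 CPM, a ratio of 0.92. Ptprc, which codes for CD45 and spans 113 kb, ran the other way. It had 2004, 2790, 2211 and 1813 CPM in cluster 9 of the Crep hashtags and 2529, 1958, 1740 and 1606 CPM in the Cren hashtags, against 790 to 968 CPM in the other cells.

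With every cell thinned to 650 UMIs, which left out no cell, the cluster still had fewer cells with a UMI of these genes. Cd8b1 was seen in 21.8% of cluster 9 cells (95% Wilson interval 15.4% to 30.1%), against 45.3% of the other cells and 44.6% of the 480 shallow other cells. Cd3e was seen in 31.9% (24.2% to 40.8%), against 59.5% and 55.4%. Cd8a was seen in 31.9% (24.2% to 40.8%), against 39.8% and 39.0%, and Trbc2 in 25.2% (18.3% to 33.7%), against 29.3% and 24.6%. For these last genes the interval of the cluster covers both other shares. The intervals take cells as independent, though the cells come from 8 hashtags, so they are no test of a difference. Ptprc was seen in 72.3% (63.6% to 79.5%), against 42.6% and 47.5%. Without thinning, Cd8b1 was seen in 36.1% and 85.1% of cells and Cd3e in 45.4% and 94.6%. The table holds only cells labelled CD8 T cells, so the share that free RNA gives in a cell type without Cd8b1 or Cd3e was not measured. Intervals cover counting error only.

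At the same 650 UMIs a cluster 9 cell had a median of 476 genes and another cell 428. The ratio was 1.11 ± 0.0341 (SD over 8 hashtags). The shallow other cells had 437, and within the cluster the shallow members had 485.5 and the deeper ones 437.

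**Figure D4:**
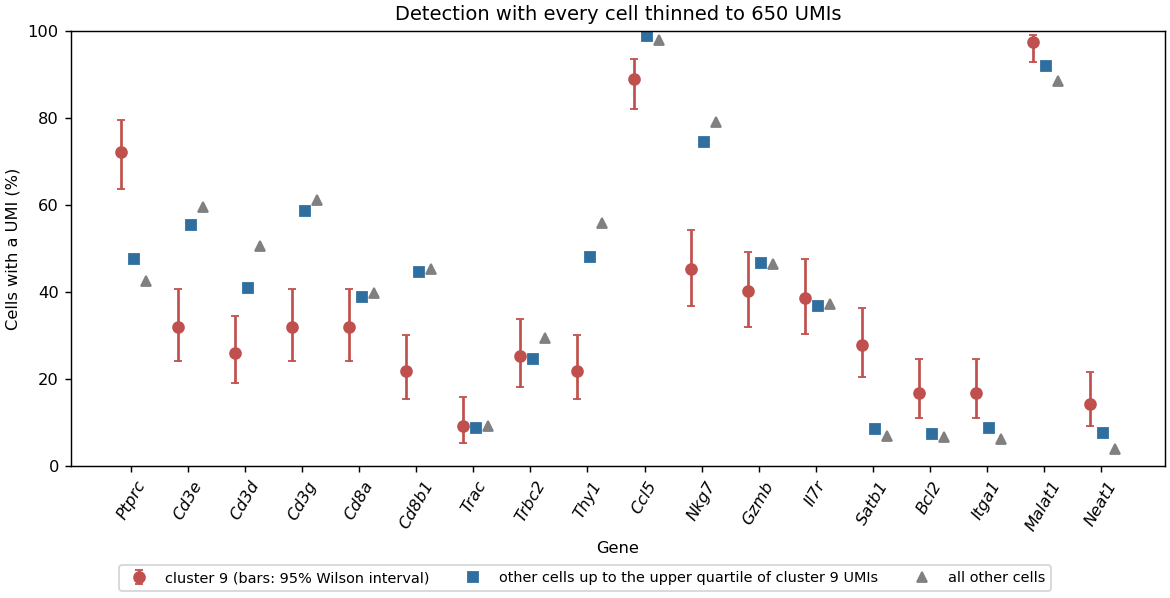
Percent of cells with at least 1 UMI (y axis) for each gene (x axis) after every cell was thinned to 650 UMIs. Red circles with 95% Wilson intervals are cluster 9, blue squares the 480 other cells of at most 1339 UMIs and grey triangles all other cells. Cd3e, Cd3d, Cd3g, Cd8b1, Thy1 and Nkg7 lie lower in cluster 9, and Ptprc, Satb1, Bcl2, Itga1 and Neat1 lie higher.

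Cytotoxic genes were lower in 10 of 13 compared, 6 at least 2-fold, with a median ratio of 0.637 (0.421 in the 94 shallow cells). Ccl5, a chemokine that draws T cells and monocytes, had 12720 CPM in cluster 9 and 26023 CPM in the other cells, Nkg7, a granule membrane protein, 1285 and 2839 CPM, and Gzma 1181 and 3181 CPM. Gzmb had 1348 and 2073 CPM, and its thinned share of 40.3% (32.0% to 49.3%) covers the 46.4% of the other cells. The higher ones were Zeb2, a transcription factor of terminal effectors (ratio 3.60), and Klrk1 and Tbx21 (1.20 and 1.14). Even at a lower level, Ccl5 was seen in 93.3% of cluster 9 cells, against 99.7% of the other cells.

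Genes of other T cell states divided largely along their span, as the genes compared did in general. Tissue-resident genes had a median ratio of 1.74 (2.35 in the 94 shallow cells), with Itga1, an integrin chain that binds collagen, at 2.75, the transcription factor Runx3 at 2.00, the integrin chain Itgae at 1.87 and Cd69 at 1.62. Cxcr6 and Rgs1 of the same list were at 0.764 and 0.732. Stem-like genes had a median of 1.05, or 0.931 with ribosomal and mitochondrial genes left out of the totals, with Satb1 at 3.75, Bcl2 at 2.55, Lef1 at 2.36, Il7r at 1.05, Tcf7 at 0.825 and Klf2 at 0.675. Exhausted genes had a median of 1.14 over 4 compared, and Nr4a2 was the highest of these at 2.06. Over the CD8, cytotoxic, stem-like, exhausted and tissue-resident lists together, 8 of 9 genes that span at least 50 kb were higher in the cluster, with a median ratio of 2.36. Of 29 genes that span under 20 kb, 7 were higher and 22 lower, with a median of 0.733. Nr4a2 and Cd69 were among the 7. Ribosomal and mitochondrial genes aside, all genes compared had medians of 0.589 to 0.729 in the span classes under 20 kb. In the classes from 50 kb up they had medians of 1.73 to 3.35, so the division was not particular to these lists. Gzmk, the long gene that was lower, had a ratio of 0.473. These counts were made after the values were seen.

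**Figure D5:**
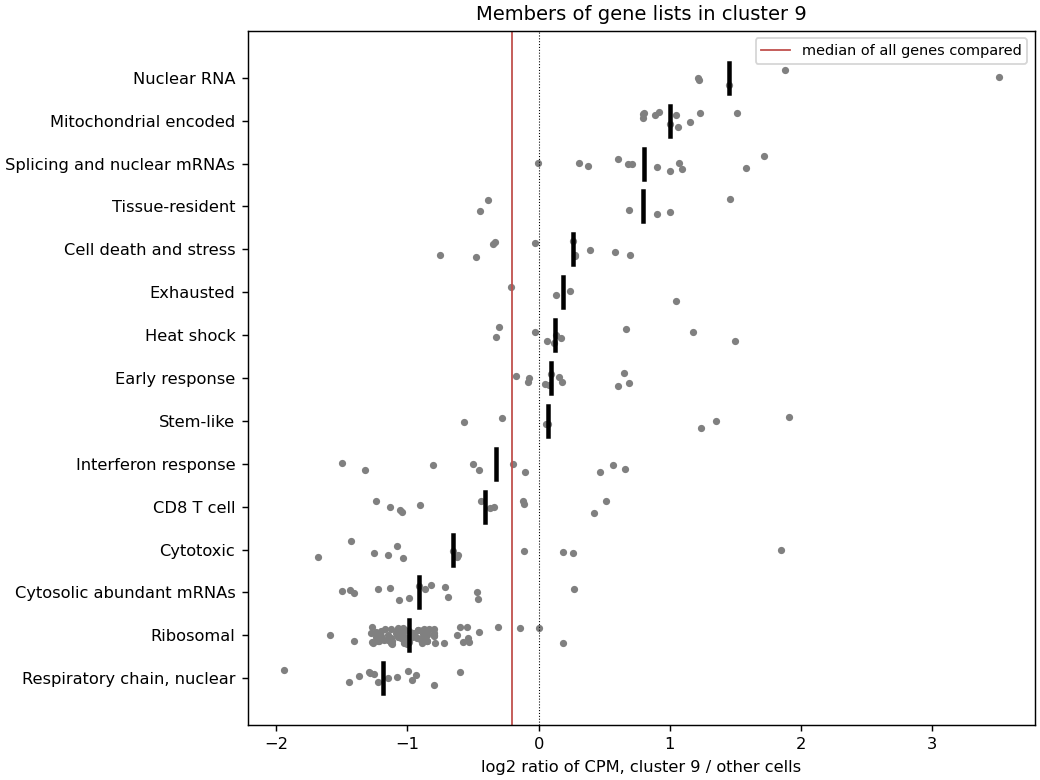
Each point is a gene of the list named on the y axis, placed by its log2 ratio of CPM, cluster 9 over other cells (x axis). Black bars are list medians, the red line the median of the 2482 genes compared and the dotted line equal levels. List medians run from 0.440 for the nuclear respiratory chain genes to 2.73 for the nuclear RNAs on the linear scale.

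Early response genes had a median ratio of 1.07 and heat shock genes 1.09, beside the 0.867 of all genes compared. With ribosomal and mitochondrial genes left out of the totals the medians were 0.946 and 0.965, beside 0.769. In the 94 shallow cells they were 1.22 and 1.43, beside 0.822, and heat shock genes had 1.41, beside 0.857, when the other cells were held to low depth too. Of 10 heat shock genes compared, 7 were higher, but only 1 in 8 of 8 hashtags. The annotated heat shock share of a cell's UMIs was not higher. Its median was 0.36% in cluster 9 and 0.39% in the other cells, or 0.345% and 0.37% with both sets held to low depth. The chaperone Hsph1 had a ratio of 2.82 and Hsp90aa1 of 2.26, while the main constitutive chaperone Hspa8 was at 0.799. Jun was at 1.52 and Fos at 0.947. Of 11 genes of cell death and stress compared, 6 were higher and 5 lower, none 2-fold, with a median of 1.20. Pmaip1, a BH3-only death gene, was at 1.62, Bax at 0.796 and the survival gene Mcl1 at 1.21. Interferon response genes had a median of 0.802, with Ly6a at 0.400. Both proliferation genes compared, Hmgb2 and Tuba1b, were lower, at 0.666 and 0.321. Pclaf, Birc5 and Ube2c had no UMI.

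Markers of other cell types were few. The CD4 T cell list had 18 UMIs of the 173589 in the cluster, with none of Foxp3 and 2 of Cd4, and summed to 104 CPM in cluster 9 and 36.7 CPM in the other cells. By hashtag the sum ran from 0 to 320 CPM in cluster 9 and from 19.1 to 77.2 CPM in the other cells, and 11 of the 18 UMIs were Ikzf2, which spans 156 kb. The gamma-delta list had 16 UMIs and none of Trdv4 or Tcrg-C4, and summed to 92.2 CPM in cluster 9 and 107 CPM in the other cells. The NK and innate lymphoid list had 34 UMIs and none of Kit, Klrb1b or Klrb1c. It summed to 196 CPM in cluster 9 (86.4 to 381 CPM by hashtag) and 122 CPM in the other cells (101 to 166 CPM). Myeloid genes summed to 484 CPM in cluster 9 and 405 CPM in the other cells. By hashtag this sum ran from 212 to 777 CPM in the cluster and from 342 to 500 CPM in the other cells, with S100a8, S100a9, Itgam and Csf1r at 0. Of 9 B and plasma cell genes, 3 were in the deposited counts. They had 8 UMIs, which is 46.1 CPM in cluster 9 (0 to 114 CPM by hashtag), against 21.3 CPM in the other cells (8.77 to 38.7 CPM). Of 9 epithelial and stromal genes, 3 were in the deposited counts. They also had 8 UMIs, with Epcam and Krt18 at 0. This is 46.1 CPM in cluster 9 (0 to 127 CPM), against 14.9 CPM in the other cells (7.82 to 21.3 CPM). The CD4 T cell, innate lymphoid, myeloid, B and plasma, and epithelial and stromal sums were thus higher in cluster 9 than in the other cells. Their hashtag ranges overlapped. The members named as having no UMI gave no part of the sums in cluster 9, which came from the other members of each list. The part of such cells or of their RNA in the values of cluster 9 was not tested. The erythroid, mast cell and platelet list had 1 of 7 genes in the deposited counts, Pf4, with no UMI in cluster 9. Pf4 had 0.432 CPM in the other cells, so a count of 0 could hardly tell the cluster from them. A count of 0 in 119 cells allows a share of up to 2.52% of cells with a UMI.

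The size of cluster 9 in the groups was compared because the study contrasts CD8 T cells with and without a cut Bcl6. Cluster 9 held 14, 19, 18 and 12 cells of the Crep hashtags and 14, 15, 15 and 12 cells of the Cren hashtags. It made up 1.37%, 1.74%, 1.80% and 1.15% of cells in Crep, a mean of 1.52% ± 0.309, and 1.07%, 1.36%, 1.37% and 1.33% in Cren, a mean of 1.28% ± 0.141 (SD, n = 4 each). Of the Crep hashtags, 3 of 4 were above all Cren hashtags, and Crep 4 was lower than 3 of them. The difference did not exceed the spread (exact two-sided permutation test, p = 0.2, adjusted 0.5 over 7 tests, where the smallest possible p is 0.0286). It depended on which members were counted: among the 94 shallow members the Crep share was 1.34% and the Cren share 0.855% (exact p = 0.0286). With members limited to coarse cluster 7, the Crep share was 1.13% and the Cren share 1.22% (exact p = 0.714). The 25 deeper members numbered 1, 1, 4 and 1 in Crep and 3, 5, 4 and 6 in Cren.

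No difference between the groups in the median depth or composition of the cluster per hashtag exceeded the spread over hashtags. The part of deeper members within the cluster was not tested. Median UMIs were 920 ± 112 in Crep and 1101 ± 228 in Cren (exact permutation p = 0.229, SD, n = 4 each), and median genes 633 ± 60.6 and 738 ± 89.6 (exact permutation p = 0.143). Ribosomal UMIs made up 6.22% ± 2.62 of a Crep cell and 4.28% ± 2.24 of a Cren cell of the cluster (exact permutation p = 0.286). For the other cells these values were 20.1% ± 0.637 for Crep and 22.2% ± 2.48 for Cren. Mitochondrial UMIs made up 1.93% ± 0.342 for Crep and 2.05% ± 0.481 for Cren (exact permutation p = 0.686), and the nuclear RNA list 6.62% ± 1.32 for Crep and 5.90% ± 1.32 for Cren (exact permutation p = 0.486). Without Gm42418 and Gm26917 the nuclear list gave 1.27% ± 0.146 for Crep and 1.24% ± 0.0614 for Cren (exact permutation p = 0.743). Long genes made up 21.1% ± 0.627 for Crep and 21.8% ± 2.25 for Cren (exact permutation p = 0.6). Without Cmss1 they made up 16.9% ± 1.07 for Crep and 19.2% ± 3.16 for Cren (exact permutation p = 0.257). Over the 7 tests the adjusted p ran from 0.5 to 0.686.

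Between Crep and Cren cells of cluster 9, 0 of 326 genes tested (0%) passed an adjusted p of 0.05 in edgeR's quasi-likelihood test. Unadjusted p was under 0.05 for 27 (8.28%), and DESeq2 passed 0, with 18 under 0.05 unadjusted. In simulated data of this size the test recovered 27 of 81 genes (33.3%) changed 2-fold and 83 of 84 (98.8%) changed 4-fold. The simulation gave every gene the same preset dispersion, not estimated from these data, so these rates may differ from the power of this comparison. In the other cells, 61 of 9639 genes (0.633%) passed, 34 of them higher and 27 lower in Crep. The 5 genes with the smallest p in each direction are given as values, each with an adjusted p of 0.477 in edgeR. Higher in Crep were the granzyme Gzmb (log2 fold change 0.96 ± 0.32 SE), the histone gene H2afj (1.11), Gphn (0.89), the GTPase Gimap3 (0.92) and the mitochondrial leucyl-tRNA synthetase Lars2 (0.68). Lower in Crep were the ribosomal genes Rps10 (−0.81), Rps2 (−0.71), Rplp0 (−0.72) and Rpl15 (−0.85) and the chaperone Hsp90ab1 (−0.61).

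Gzmb had 48, 26, 48 and 16 UMIs in cluster 9 of the Crep hashtags and 35, 14, 12 and 35 in the Cren hashtags. Scaled in edgeR, Crep averaged 4044 ± 1733 CPM and Cren 2046 ± 982 CPM (SD, n = 4 each), and the groups overlapped. Its log2 fold change in the other cells was 1.57 ± 0.41 SE (adjusted p = 0.235 in edgeR). Bcl6, the floxed gene, had 1 UMI in Crep and 4 in Cren, too few to check the labels in this cluster. In the other cells its level was 29.4 CPM ± 3.52 over the Crep hashtags and 17.4 CPM ± 2.38 over the Cren hashtags (SD, n = 4 each). It was thus higher in Crep, against the direction that a loss of the transcript would give. Where the loxP sites lie relative to the counted reads is not given in the sources used here, so Bcl6 reads outside the cut segment would check nothing. Tcf7, a transcription factor of stem-like T cells, had 0, 2, 1 and 0 UMIs in Crep and 1, 6, 3 and 3 in Cren, and the inhibitory receptor Pdcd1 had 1 UMI in Crep and 10 in Cren, of which 9 in Cren 1. In the 94 shallow members alone, a selection made after the values were seen, 5 of 106 genes tested (4.72%) passed in edgeR. Rpl27a, Rps24 and Lars2 were higher in Crep, with log2 fold changes of 1.76, 1.43 and 1.27. Their raw UMIs, from 56 Crep and 38 Cren cells, were 75, 118 and 195 in Crep against 14, 27 and 48 in Cren. Stat4, which carries the interleukin 12 signal, and Lncpint were lower, with log2 fold changes of −1.49 and −1.42. They had 28 and 28 raw UMIs in Crep against 52 and 48 in Cren. The adjusted p of these 5 genes in edgeR ran from 0.0326 to 0.0449. Over all members Rpl27a and Rps24 had log2 fold changes of 0.29 and 0.05 (adjusted p = 0.839 and 0.981 in edgeR). Of the 25 deeper members that this selection leaves out, 18 were Cren.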

How the data were processed

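The authors deposited raw UMI counts for 12798 genes in 8562 cells of 1 pooled library. Hashtag, group, hashtag calls and clusters came from the annotation deposited by the authors. The submitters' processing notes name the build mm10 and the tools Seurat 4.3.0, Cell Ranger 7.0.0 and bcl2fastq 2.20.0.422, without their roles. The annotation deposited by the authors also held the percent of mitochondrial, ribosomal and heat shock UMIs per cell. No cell was removed and no doublet caller was run. Totals per hashtag ran from 2635241 to 4201265 UMIs, and cluster 9 had 11580 to 26233 UMIs per hashtag.

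The members and gene lists were chosen with earlier results of these data known. Ribosomal and mitochondrial shares were recomputed from the counts. Gene spans came from GENCODE vM21 (GRCm38), matched by symbol for 12644 genes. CPM was summed over cells. The genes named were the 15 with the largest ratio, among those with a UMI in at least 10% of cluster 9 cells, and the 15 with the smallest, among those with at least 30 UMIs expected, with the leading members of each list. Cells were thinned to 650 UMIs with a fixed seed. Per-hashtag values were compared by exact permutation, and counts summed per hashtag (all 8 had at least 5 cells) with edgeR 4.0.16 (quasi-likelihood, TMM, filterByExpr, Benjamini-Hochberg at 0.05), with DESeq2 1.42.0 as an alternative. The code was tested on simulated data. The work ran in Python 3.11.15 (matplotlib 3.10.9, pandas 2.3.3, scipy 1.17.1, numpy 2.4.6) and R 4.3.3. Alternatives left out each hashtag, hashtag-discordant cells, members outside the main coarse cluster and members over 1500 UMIs, and changed the scaling, the filter, the thinning depth and the cells compared. Hashtags paired by number, and lists without single abundant loci, were added after seeing the data.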

Additional observations from a re-analysis of the deposited data

Results flagged for a closer look

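The median ribosomal share per cell differed between the groups in another way in cluster 9 than in the other cells. Crep minus Cren was 1.94 percentage points in cluster 9 (6.22% in Crep, 4.28% in Cren) and −2.04 in the other cells (20.1% in Crep, 22.2% in Cren). The difference of these effects was 3.99 percentage points (exact permutation test, p = 0.0286, the smallest that 4 against 4 hashtags allow, adjusted 0.171 over 6 such tests), so it fails the correction. With 1 hashtag left out in turn it ran from 2.86 (without Crep 4) to 4.59, and the exact p was 0.0571 without Cren 1, Cren 2 or Cren 4. The difference within cluster 9 alone ran from 0.737 (without Crep 4) to 3.06 percentage points (without Cren 4, exact p = 0.0571), and it was 0.469 with members in coarse cluster 7. UMIs summed over the cluster did not show a higher ribosomal level in Crep. Ribosomal genes had 89066 to 103696 CPM in the Crep hashtags and 83669 to 140829 CPM in the Cren hashtags. Deeper members, 7 in Crep and 18 in Cren, weigh more in a sum than in a median, and their part in this was not tested.

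Over 7 quantities, 14 groups of 4 hashtags were screened, and in 3 of them 1 hashtag lay apart from the others by more than Dixon's 95% limit, which chance gives in about 1 of 20 groups of normal values. In Cren, the share of cells in cluster 9 was 1.07% in Cren 1 and 1.33% to 1.37% in the other 3. The ribosomal share of cluster 9 was 7.61% in Cren 4 and 2.78% to 3.44% in the other 3. In Crep, the nuclear RNA share of cluster 9 was 8.58% in Crep 4 and 5.73% to 6.15% in the other 3. Gm42418 made up 6.98% in Crep 4, and without Gm42418 and Gm26917 the share was 1.39% in Crep 4 and 1.06% to 1.34% in the other 3.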

How the results depend on the processing

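Crep and Cren hashtags carry the same numbers 1 to 4 in the annotation, and no source ties a number to a litter, batch or day. Deviations of same-numbered hashtags from their group means correlated at −0.06 to 0.01 in cluster 9 and at −0.04 to 0.18 in the other cells, where 5 of 8 hashtags correlated best with their own number. With the number as a replicate block, added after seeing the data, edgeR passed 0 genes in cluster 9 and 108 in the other cells (53 of them among the 61 without the block), and no per-hashtag comparison passed an exact sign-flip test, which cannot go below p = 0.125. The planned comparison of T cell receptor calls was not run, since the annotation used here holds no such column, and leaving out hashtag-discordant cells gives no value for hashtag agreement itself.

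With 1 hashtag left out in turn, the share difference (Crep minus Cren) ran from 0.138 to 0.355 percentage points, and the exact p reached 0.0286 without Crep 4. The ribosomal difference ran from 0.737 to 3.06 and the nuclear difference from 0.0657 (without Crep 4) to 1.19, with no exact p under 0.05. The UMI difference ran from −277 to −99.8, with an exact p of 0.0286 without Cren 1. The mitochondrial difference ran from −0.282 to 0.0557, positive without Crep 4 (0.0296) and without Cren 3. The long-gene difference ran from −1.82 to −0.177, with an exact p of 0.0286 without Cren 4. Hashtag agreement ran from 0.378 to 0.967, with an exact p of 0.0312 without Crep 2. Genes passing in the other cells ran from 14 (without Crep 2) to 127 (without Cren 3), against 61 in all. They were 18 without Cren 1, 25 without Crep 1 or Cren 4, 26 without Crep 3, 34 without Cren 2 and 39 without Crep 4. In cluster 9 the count was 0 under each.

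The share difference was −0.0897 with members in coarse cluster 7 and 0.489 (exact p = 0.0286) with members up to 1500 UMIs. Members up to 1500 UMIs, a choice made after seeing the data, gave 834 genes at least 2-fold lower in place of 474, medians of 0.282 for ribosomal and 3.80 for long genes, and 5 genes passing between groups. Against the 480 shallow other cells, also chosen after seeing the data, 252 genes were at least 2-fold higher and 298 lower, with medians of 0.583 and 2.01. The cause of these shifts was not tested. The low UMI number of the cluster limits tests of single genes.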
